A study of Arabidopsis thaliana with 12 samples.

Results

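Watered *MtPHD6* transgenic plants (PHD6-control) were compared directly with droughted wild type plants (WT-drought), to see at which genes leaves of watered plants with the transgene resembled leaves of wild type plants short of water and at which genes they did not. The comparison rests on 3 libraries of each group, 6 of the 12 RNA-seq libraries of the series, and uses every named gene of the count table. *MtPHD6* encodes an Alfin-like PHD finger protein of *Medicago truncatula*. PHD6-control plants were Arabidopsis that over-expressed *MtPHD6* and were kept watered, and WT-drought plants were untransformed Arabidopsis from which water was withheld. Seedlings were 12 days old at the start of a drought of 7 d by the study's methods, while the sample labels of all groups give 10 days. Rosette leaves were harvested from 3 biological replicates per group. The transgene was carried in homozygous T3 lines, and the line behind each library is not given in the sources used here, so the libraries may come from 1 line or from several. The transcript of *MtPHD6* itself was not analysed here. Genotype and watering both differed between the groups, so this comparison alone does not tell their parts in a difference apart. Watered wild type plants (WT-control) and droughted transgenic plants (PHD6-drought) are given beside the values where they place a gene.

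PHD fingers are small zinc-coordinating domains, and those of Alfin-like proteins bind histone H3 that is methylated at lysine 4, a mark of active genes. A leaf short of water makes abscisic acid (ABA), which binds PYR/PYL receptors, and the receptors then block PP2C phosphatases and free SnRK2 kinases to switch on dehydration genes. Drought also slows growth and photosynthesis, and draws on sugar signalling, proline turnover, defence hormones and the enzymes that remove reactive oxygen.

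Expression is given in CPM, counts scaled to a common library size after TMM normalization, in the order of replicates 1, 2 and 3, and means with SD over 3 libraries. Fold changes are log2 of PHD6-control over WT-drought with the SE of the fit, so that a positive value is higher in the watered transgenic plants. A gene was called at an adjusted p under 0.05 by edgeR's quasi-likelihood test with Benjamini-Hochberg adjustment over 19681 genes tested. The 6 libraries held 18816144 to 24717357 counts over named genes. One library, replicate 3 of PHD6-control, was unlike the others of its group. The correlation of its log CPM values was 0.987, 0.986 and 0.985 with the WT-drought libraries, and 0.982 and 0.981 with replicates 1 and 2 of its own group, which reached 0.989 with each other. It lay on the WT-drought side of the first principal component of all 12 libraries (44.2% of the variance), at 8.95 beside 18, 22 and 21.7 for WT-drought and -26 and -32.2 for replicates 1 and 2. Results below are therefore given with and without it where it matters. Leaf markers were in place in both groups, with summed mesophyll markers (RBCS1A, LHCB1.1, CA1 and RCA) of 24970 to 28402 CPM in PHD6-control and 21597 to 23692 CPM in WT-drought. Summed seed markers (4 genes) reached at most 0.159 CPM. Of 5 root markers, *IRT1*, *PHT1;1* and *PRP3* were at or near 0, while *PYK10* and *NRT2.1* passed the filter on low counts, and their sum, nearly all of it *PYK10*, ranged from 75.2 to 83.1 CPM in PHD6-control and from 70 to 139 CPM in WT-drought, with neither called. Summed floral markers (5 genes) ranged from 5.26 to 16.5 CPM in PHD6-control and from 3.08 to 8.5 CPM in WT-drought, and 0 of 5 were called by edgeR (3 had an unadjusted p under 0.05, and DESeq2 called 2). In such bulk samples, fewer cells of a type and less RNA per cell cannot be told apart.

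Most genes differed by less than 2-fold between the 2 groups. The median log2 fold change was -0.0168, and the 95% interval of the change lay wholly within 2-fold for 16702 of 19681 genes (84.9%). That share was not taken for other pairs of groups, so it does not measure likeness to the drought state. Higher expression in PHD6-control was called for 685 genes (3.48%) and lower expression for 420 genes (2.13%). Counts of called members in the lists below are to be read beside these 2 shares. The plot of mean levels shows these genes on either side of a narrow diagonal. All 1105 called genes had groups that did not overlap, as did 6086 of all genes tested (30.9%), and 5119 genes had an unadjusted p under 0.05. Among the called genes, 785 had an interval within 2-fold, so most called differences were small. A further 2659 genes were neither called nor held within 2-fold, and these data place them on neither side. The study's own thresholds (more than 2-fold, with p under 0.05 before adjustment) gave 218 higher and 212 lower genes. The number of calls depended on single libraries. Without PHD6-control replicate 3 it rose to 1936 higher and 1755 lower, and without WT-drought replicate 2 or 3 it dropped to 9 or 6 higher and 20 or 12 lower. Without PHD6-control replicate 1 or 2 there were 73 or 113 higher and 42 or 44 lower, and without WT-drought replicate 1 there were 475 and 182. For orientation, and on the same wild type controls, 4.26% of genes were called higher and 0.722% lower in PHD6-control vs. WT-control, and 12.2% higher and 7.18% lower in WT-drought vs. WT-control.

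**Figure D1:**
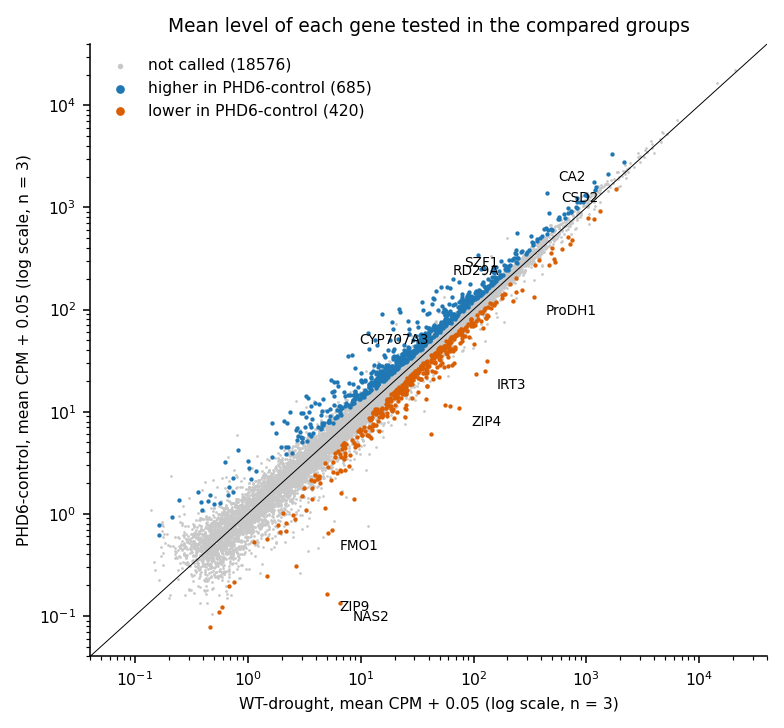
Mean CPM of each of 19681 genes in WT-drought (x axis) and PHD6-control (y axis), both on log scales with 0.05 CPM added, n = 3 libraries each. Blue points are the 685 genes called higher and orange points the 420 called lower in PHD6-control, and most genes lie near the diagonal of equal levels.

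Of the 1105 called genes, 15 stayed called whichever 1 of the 6 libraries was left out. They were singled out after their values were seen. Lower in PHD6-control were 11 of them, namely the zinc deficiency genes *ZIP4*, *ZIP5*, *ZIP9*, *IRT3* and *NAS2*, *PAP27* (a purple acid phosphatase), *OZF2* (a CCCH zinc finger protein), *ARR6* (a type-A response regulator of the cytokinin pathway), AT1G20380 (prolyl oligopeptidase family), AT4G36850 (PQ-loop repeat family) and AT5G27920 (F-box family). The 4 that were higher were *CSD2* (the chloroplast copper/zinc superoxide dismutase), *CCS* (the copper chaperone of these enzymes), *ENH1* (a rubredoxin family protein of the chloroplast) and AT2G04570 (GDSL lipase family). *PAP27* measured 29.9, 30.3 and 33 CPM in PHD6-control and 145, 132 and 120 CPM in WT-drought, a change of -2.09 ± 0.08 (adjusted p = 1.1e-05). *ENH1* measured 275, 262 and 240 CPM against 154, 152 and 166 CPM (0.71 ± 0.07, adjusted p = 0.00408). In neither gene did the groups overlap. The change of *PAP27* against WT-control was -0.34 (adjusted p = 0.059) in PHD6-control and 1.76 (adjusted p = 2.98e-05) in WT-drought. For *ENH1* the same values were 0.08 (adjusted p = 0.692) and -0.63 (adjusted p = 0.00108).

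**Figure D2:**
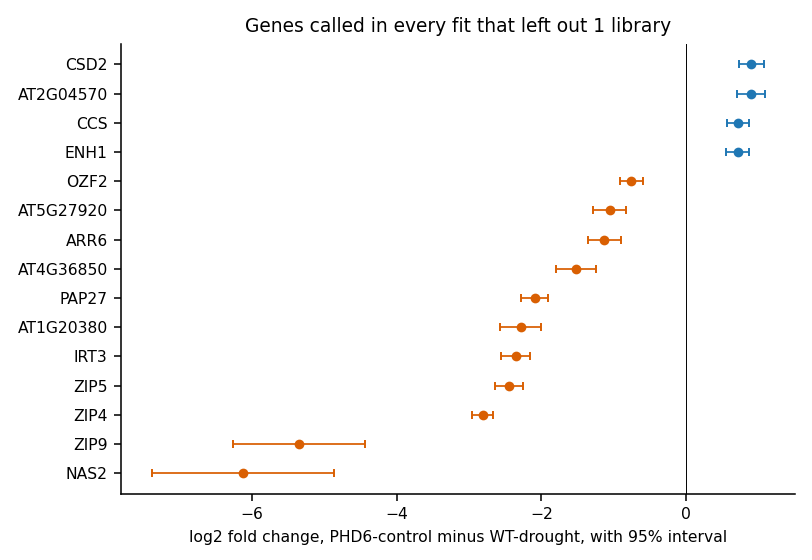
Log2 fold change of PHD6-control over WT-drought with its 95% interval for the 15 genes that stayed called without any 1 library. The 4 blue genes were higher and the 11 orange genes lower in PHD6-control, from *CSD2* at 0.90 to *NAS2* at -6.13.

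The largest differences were in genes of zinc deficiency, which plants switch on when the metal runs short. Zinc enters cells through transporters of the ZIP family, *NAS* genes make nicotianamine, a small molecule that carries metals through the plant, and the transcription factors BZIP19 and BZIP23 switch both on. Of 11 members tested, 7 were lower in PHD6-control and 0 higher (beside 2.13% and 3.48% of all genes), with a median log2 fold change of -2.23. The list of 14 also holds *ZIP10*, *ZIP12* and *MTP2*, which did not pass the filter on low counts. BZIP19 and BZIP23 bind the palindrome TGTCGACA. It was searched, together with other motifs named further on, in the 250 bases before the gene start on both strands, and 0.28% of 19670 genes tested that had such a sequence held it. In the zinc deficiency list it was found in 4 of 14 genes (28.6%), *ZIP4*, *IRT3*, *ZIP10* and *ZIP12*. Of these, *ZIP10* and *ZIP12* were not tested, so the 2 shares are over unlike sets. It was not found in these bases before *ZIP5*, *ZIP9* or *NAS2*. It also lay before AT1G20380, which is on no list. The sequences of *ZIP4*, *IRT3* and AT1G20380 are shown because these genes carry the palindrome and lay among the most different genes, and were chosen with their values known. They are from RefSeq (TAIR10.1), 5′ to 3′ in the direction of the gene, with TGTCGACA in capitals, at chr1:3667140-3667223 (minus strand), chr1:22447300-22447549 (minus strand) and chr1:7061192-7061441 (plus strand). For *ZIP4* only the 84 bases that do not run into the neighbouring gene are shown, and a CGCGTT motif on the opposite strand is also in capitals.
ZIP4: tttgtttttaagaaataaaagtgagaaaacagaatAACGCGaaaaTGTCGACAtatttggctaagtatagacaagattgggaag
IRT3: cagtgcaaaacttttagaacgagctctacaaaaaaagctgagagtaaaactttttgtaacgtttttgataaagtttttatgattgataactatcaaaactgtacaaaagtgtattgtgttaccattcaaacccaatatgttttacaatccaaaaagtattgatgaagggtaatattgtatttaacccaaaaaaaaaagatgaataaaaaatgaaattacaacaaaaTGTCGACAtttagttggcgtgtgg
AT1G20380: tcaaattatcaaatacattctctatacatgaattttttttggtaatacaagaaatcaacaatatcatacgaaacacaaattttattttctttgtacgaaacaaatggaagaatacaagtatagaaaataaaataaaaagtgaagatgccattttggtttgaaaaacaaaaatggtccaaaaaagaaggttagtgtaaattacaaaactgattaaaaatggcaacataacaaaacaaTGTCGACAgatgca
The palindrome ended 31 bases before the start of *ZIP4* and 16 bases before that of *IRT3*. A match is a description of the sequence, and binding was not measured.

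Transporters first, *ZIP4* (AT1G10970) measured 10.2, 10.8 and 11.0 CPM in PHD6-control and 77.1, 75.4 and 71.9 CPM in WT-drought. Its libraries differed little within a group and did not overlap between them, and the change of -2.81 ± 0.07 (95% interval -2.96 to -2.67, adjusted p = 3.58e-07) had the smallest p of the list. *IRT3*, a transporter of zinc and iron, measured 24.4, 27.7 and 22.6 CPM against 137, 123 and 121 CPM (-2.35 ± 0.09, adjusted p = 8.13e-06). *ZIP5* measured 10.8, 10.7 and 12.4 CPM against 66.1, 56.9 and 62.1 CPM (-2.45 ± 0.09, adjusted p = 7.38e-06). PHD6-control replicate 3, which was nearest to WT-drought over all genes, stayed with its own group at these transporters. *ZIP9* was near 0 in PHD6-control, with 8 counts in all in 3 libraries against 323 counts in WT-drought (adjusted p = 0.00148). *NAS2*, a nicotianamine synthase gene, had 6 counts, all in replicate 3, against 411 counts, or 5.96, 5.92 and 7.86 CPM in WT-drought (adjusted p = 0.00359). Fitted changes of *ZIP9* (-5.35 ± 0.40) and *NAS2* (-6.13 ± 0.55) thus rest on few counts on one side. *NAS3*, which is not on the list, was among the 10 largest falls (1.75, 0.677 and 1.57 against 8.89, 8.19 and 9.19 CPM, -2.71 ± 0.27, adjusted p = 0.00454), and was not called without WT-drought replicate 3.

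Smaller differences were called for *ZIP1* (-0.77 ± 0.11, adjusted p = 0.0191) and for *HMA2*, a pump that exports zinc from cells (-0.57 ± 0.08, adjusted p = 0.0138). *ZIP3* did not pass (-2.23 ± 0.55, adjusted p = 0.0508). The regulators themselves were level. *BZIP19* measured 24.4 ± 0.993 CPM in PHD6-control and 25.1 ± 1.71 CPM in WT-drought (SD, n = 3), with an interval of -0.21 to 0.13, and that of *BZIP23* ran from -0.17 to 0.54. Against WT-control, 8 of 11 members were higher in WT-drought (12.2% of all genes were), and in PHD6-control 0 were higher and 1 was lower (0.722% of all genes were), *IRT3* at -0.68 ± 0.13 (adjusted p = 0.0235). *ZIP4* stood at 13.9 ± 0.726 CPM in WT-control and at 122 CPM on average in PHD6-drought. Leaving out single libraries kept 5 to 8 members lower, and DESeq2 called 7. AT1G20380 showed the same order of groups, with 11.8, 10.6 and 12.3 CPM against 57.1, 64.9 and 46.9 CPM (-2.29 ± 0.12, adjusted p = 0.000112).

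Some enzymes that remove superoxide and peroxide were higher in PHD6-control. Superoxide dismutases turn superoxide into hydrogen peroxide, which catalases and ascorbate peroxidases then break down. Of 14 members tested, 7 were higher in PHD6-control and 0 lower (3.48% and 2.13% of all genes were), with a median of 0.301. This list was written after values of some members had been seen, so its count is a description only. *CSD2* measured 946, 863 and 818 CPM in PHD6-control and 454, 505 and 446 CPM in WT-drought (0.90 ± 0.08, adjusted p = 0.00285). *CCS* measured 251, 236 and 231 CPM against 137, 154 and 143 CPM (0.72 ± 0.07, adjusted p = 0.00359). *CSD1*, the cytosolic copper/zinc enzyme, measured 386, 346 and 410 CPM against 216, 263 and 238 CPM (0.67 ± 0.09, adjusted p = 0.0138). None of these 3 genes had overlapping groups. *FSD1*, an iron superoxide dismutase, showed the widest gap, with 62.2, 46.7 and 43.6 CPM against 18.9, 13.1 and 8.07 CPM (1.92 ± 0.25, adjusted p = 0.0131). It differed from the copper/zinc enzymes in its place among the 4 groups. *FSD1* fell against WT-control both in PHD6-control (-0.86 ± 0.15, adjusted p = 0.0176) and in WT-drought (-2.78 ± 0.25, adjusted p = 0.000186), from 91.6 ± 13.8 CPM. *CSD2* fell in WT-drought alone by these tests (-0.77 ± 0.12, adjusted p = 0.00275), with 0.13 ± 0.13 (adjusted p = 0.643) in PHD6-control. The other called members were *APX1* (0.37), *SAPX* (0.38) and *CAT2* (0.41). *CAT3*, the most abundant member, was level at 3154 and 3228 CPM on average, with an interval of -0.21 to 0.14, and *CSD3*, the peroxisomal copper/zinc enzyme, had an interval of -0.19 to 0.30. Without WT-drought replicate 2 or 3, 2 members stayed higher, and without PHD6-control replicate 3 there were 8.

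**Figure D3:**
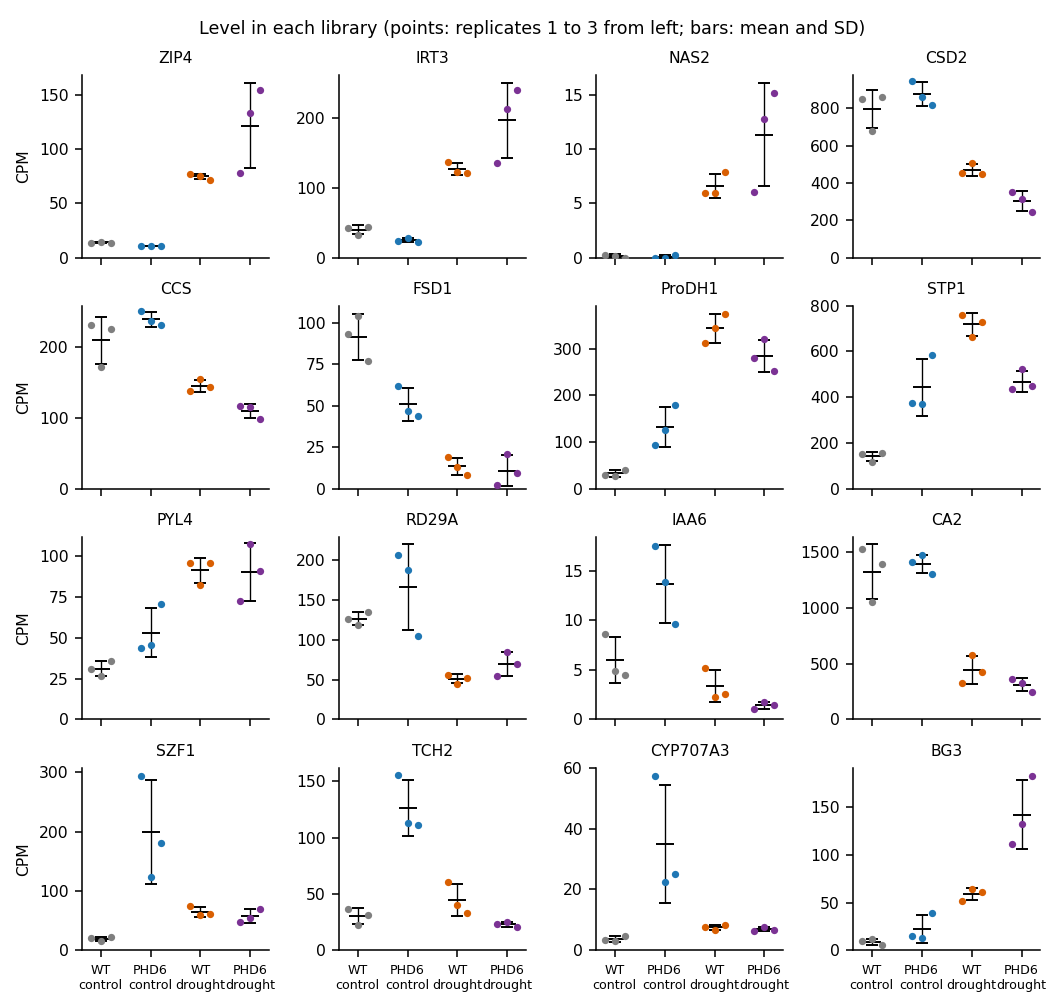
CPM of 16 genes in each library of the 4 groups (3 points a group, replicates 1 to 3 from left; bars are the mean and SD). PHD6-control lies near WT-control for *ZIP4*, *NAS2*, *CSD2*, *CCS* and *CA2*, between WT-control and WT-drought for *FSD1*, *ProDH1*, *STP1* and *PYL4*, and above both on average for *RD29A*, *IAA6*, *SZF1*, *TCH2* and *CYP707A3*. By edgeR, *RD29A* (adjusted p = 0.411) and *IAA6* (adjusted p = 0.0593) were not called higher in PHD6-control than in WT-control.

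Carbon fixation genes were all higher in watered transgenic plants in sign, and mostly by little. All 25 genes of the Calvin cycle, carbonic anhydrase and photorespiration list that were tested had positive changes (median 0.274). Among them, 10 were called higher (3.48% of all genes were), and 23 had an interval within 2-fold (84.9% of all genes had). Carbonic anhydrases, which interconvert carbon dioxide and bicarbonate, differed most. *CA1* measured 3406, 3652 and 3039 CPM in PHD6-control and 1504, 1852 and 1695 CPM in WT-drought (1.00 ± 0.09, adjusted p = 0.00402). *CA2* measured 1414, 1474 and 1311 CPM against 329.6, 579.1 and 425.2 CPM (1.65 ± 0.17, adjusted p = 0.00733). The groups were well apart in both genes, and PHD6-control stood beside WT-control (3423 ± 812 CPM for *CA1* and 1328 ± 248 CPM for *CA2*). Photorespiratory *HPR* (hydroxypyruvate reductase, 0.44), *GOX1* (glycolate oxidase, 0.36) and *CP12-2* (a regulator of the Calvin cycle, 0.42) were also called higher. Without PHD6-control replicate 3 there were 24 calls, without PHD6-control replicate 1 or 2 or WT-drought replicate 2 there were 2, without WT-drought replicate 1 there were 6 and without WT-drought replicate 3 there were 0. The light reactions were nearer to equal. All 42 tested genes of antennae, photosystems and electron transport had intervals within 2-fold, and 1 was called, *FD2* (ferredoxin, 0.59 ± 0.09, adjusted p = 0.0195). In this list 16 genes had an unadjusted p under 0.05, DESeq2 called 5 higher and 5 lower, and without PHD6-control replicate 3 there were 10 higher. No gene of the list was called without PHD6-control replicate 1 or 2 or WT-drought replicate 2 or 3.

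In the ABA pathway, 1 gene of ABA breakdown and 2 phosphatase genes were higher in PHD6-control, and 3 receptor genes were lower. *CYP707A3*, an 8'-hydroxylase that inactivates ABA, measured 57.3, 22.6 and 25 CPM in PHD6-control and 7.72, 6.68 and 8.45 CPM in WT-drought (2.2 ± 0.35, adjusted p = 0.021). It was the only one of 11 genes of ABA synthesis and breakdown to be called, and was not called without WT-drought replicate 2 or 3. *NCED3*, which makes the rate-limiting cut in ABA synthesis under drought, measured 9.33, 6.90 and 3.52 CPM against 3.17, 2.52 and 2.82 CPM (1.21 ± 0.32, adjusted p = 0.0604), and *ABA1* was level (interval -0.22 to 0.09). *NCED3* was at 5.34 ± 0.828 CPM in WT-control. Of 9 ABA receptor genes tested, 3 were lower in PHD6-control and 0 higher, all 9 changes were negative, and the median was -0.494. *PYL4* measured 43.5, 45.5 and 70.6 CPM against 95.6, 82.5 and 96.0 CPM (-0.78 ± 0.17, adjusted p = 0.0386). *PYL6* measured 3.51, 3.70 and 6.04 CPM against 7.72, 8.94 and 10.2 CPM (-1.01 ± 0.22, adjusted p = 0.0357). In both, PHD6-control replicate 3 was nearest to WT-drought without reaching it. *PYR1* was lower by less (-0.39 ± 0.08, adjusted p = 0.0364). *PYL5* overlapped between the groups (20.6, 24.5 and 43.8 against 53.0, 36.9 and 40.6 CPM, -0.55 ± 0.26, adjusted p = 0.216), and against WT-control it rose in PHD6-control (2.09 ± 0.28, adjusted p = 0.00445) and in WT-drought (2.65 ± 0.16, adjusted p = 3.74e-05). Leaving out any 1 library other than PHD6-control replicate 3 left 0 of the 9 receptors called, and without that library 4 were lower.

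Among clade A PP2C phosphatases, the negative regulators that the receptors hold in check, 2 of 7 were higher in PHD6-control and all 7 changes were positive (median 0.195). *PP2CA* measured 142, 128 and 128 CPM in PHD6-control and 88.8, 54.9 and 48.5 CPM in WT-drought (1.05 ± 0.19, adjusted p = 0.0271). It rose against WT-control in PHD6-control (1.12 ± 0.08, adjusted p = 0.000512) and not by this test in WT-drought (0.08 ± 0.20, adjusted p = 0.832). *ABI2* was higher by 0.57 ± 0.11 (adjusted p = 0.0315), while *ABI1* (-0.13 to 0.30) and *HAB1* (-0.08 to 0.33) had intervals within 2-fold. Both calls were lost without PHD6-control replicate 1 or 2 or WT-drought replicate 2 or 3.

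Dehydration and cold target genes were higher in the watered transgenic plants more often than lower. Of 22 tested, 6 were higher and 1 lower (3.48% and 2.13% of all genes were), with a median of 0.281. In WT-drought against WT-control, 9 of the 22 fell and 4 rose (7.18% and 12.2% of all genes did), with a median of 0.0645. *RD29B*, an ABA-induced gene of dry leaves, was near 0, at 0.168 to 0.391 CPM in WT-drought and 0.248 to 0.426 CPM in PHD6-control. How short of water these leaves were was not tested here. *RD29A* measured 207, 188 and 104 CPM in PHD6-control and 56.4, 44.9 and 52.0 CPM in WT-drought (1.70 ± 0.22, adjusted p = 0.0131). In WT-control it stood at 127 ± 8.42 CPM, from which it fell in WT-drought (-1.31 ± 0.10, adjusted p = 9.28e-05). *COR15A*, a chloroplast protein of cold and dehydration, measured 83.1, 64.9 and 26.9 CPM against 15.9, 7.89 and 10.7 CPM (2.34 ± 0.40, adjusted p = 0.0253). *GolS2*, a galactinol synthase, measured 12.7, 7.62 and 3.89 CPM against 1.95, 1.59 and 2.55 CPM (1.99 ± 0.40, adjusted p = 0.0328). PHD6-control replicate 3 was the lowest of its group in each of these 3 genes, and the groups did not overlap. None of the 3 was called higher in PHD6-control than in WT-control (0.39, 0.56 and 0.14, adjusted p = 0.411, 0.457 and 0.912). Like *RD29A*, *COR15A* (-1.77, adjusted p = 0.00114) and *GolS2* (-1.84, adjusted p = 0.0057) fell in WT-drought against WT-control. *KIN2* (1.2), *COR15B* (1.39) and *RAB18* (0.82) were the other higher genes. *KIN2* is counted beside its close copy *KIN1*, and reads may be split between them. *ERD1*, a chloroplast chaperone subunit, was lower (-0.36 ± 0.09, adjusted p = 0.0498). Dehydrin gene *ERD14* (381, 374 and 344 against 352, 361 and 417 CPM, interval -0.22 to 0.13) and *ERD4* (512, 542 and 520 against 523, 482 and 505 CPM, interval -0.08 to 0.19) overlapped and were level. Without WT-drought replicate 2 or 3 none of the list was called, without PHD6-control replicate 1 or 2 there were 1 or 2 higher, and without PHD6-control replicate 3 there were 11 higher and 3 lower. Of the factors upstream, *CBF2* was called (13.8, 6.18 and 2.85 against 1.42, 1.43 and 1.91 CPM, 2.25 ± 0.52, adjusted p = 0.0441), *CBF1* was not (2.41 ± 0.62, adjusted p = 0.0565), and *ABF2* and *ABF4*, which bind ABA response elements, had intervals within 2-fold. That call was lost in every fit that left out a library other than PHD6-control replicate 3, as 0 of 12 factors were then called.

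Proline is stored in dry leaves and broken down on rewatering. *ProDH1*, the proline dehydrogenase of that breakdown, measured 93.3, 125 and 179 CPM in PHD6-control and 311, 343 and 374 CPM in WT-drought (-1.37 ± 0.20, adjusted p = 0.0183), and was the only called gene of 6 in proline metabolism. Without PHD6-control replicate 2 or WT-drought replicate 2 or 3 it was not called. PHD6-control lay between the wild type groups, as *ProDH1* rose against WT-control (32.3 ± 7 CPM) by 2.03 ± 0.25 in PHD6-control (adjusted p = 0.00313) and by 3.41 ± 0.16 in WT-drought (adjusted p = 2.82e-05). *P5CS1*, which makes proline, measured 63.8 ± 14.8 CPM against 48 ± 3.76 CPM (SD, n = 3; 0.40 ± 0.15, adjusted p = 0.13).

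Genes of darkness and sugar starvation, which leaves express when carbon is short, followed the same order. Of 20 tested, 6 were lower in PHD6-control and 1 was higher (2.13% and 3.48% of all genes were), with a median of -0.417. *STP1*, a hexose transporter, measured 374, 369 and 586 CPM in PHD6-control and 761, 663 and 729 CPM in WT-drought (-0.70 ± 0.17, adjusted p = 0.0479). *ASN1*, the dark-induced asparagine synthetase, measured 22.5, 24.9 and 36.9 CPM against 47.6, 52.1 and 77.3 CPM (-1.07 ± 0.22, adjusted p = 0.0332). *TPS10*, of the trehalose phosphate synthase family, measured 39.5, 33.5 and 45.9 CPM against 62.0, 63.6 and 72.3 CPM (-0.74 ± 0.11, adjusted p = 0.0203). Replicate 3 was again the PHD6-control library nearest to WT-drought in all 3 genes. *GDH2* (glutamate dehydrogenase, -0.52), *TPS11* (-0.44) and *AKINBETA1* (a subunit of the SnRK1 energy sensor, -0.49) were lower too. *DIN10* did not pass (516, 664 and 884 against 1185, 943 and 1041 CPM, adjusted p = 0.0703). *BT2*, a BTB domain protein of nitrogen and sugar responses, was higher (0.53 ± 0.12, adjusted p = 0.0417), whereas its relative *BT1* overlapped between groups (interval -0.28 to 0.40). Against WT-control, 9 of the 20 rose in PHD6-control (4.26% of all genes did) and 13 rose in WT-drought (12.2% did). Without PHD6-control replicate 1 or WT-drought replicate 2 or 3 the count of calls here was 0, without PHD6-control replicate 2 it was 1 lower, without WT-drought replicate 1 it was 3 lower and 1 higher, and without PHD6-control replicate 3 it was 12 lower and 1 higher.

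**Figure D4:**
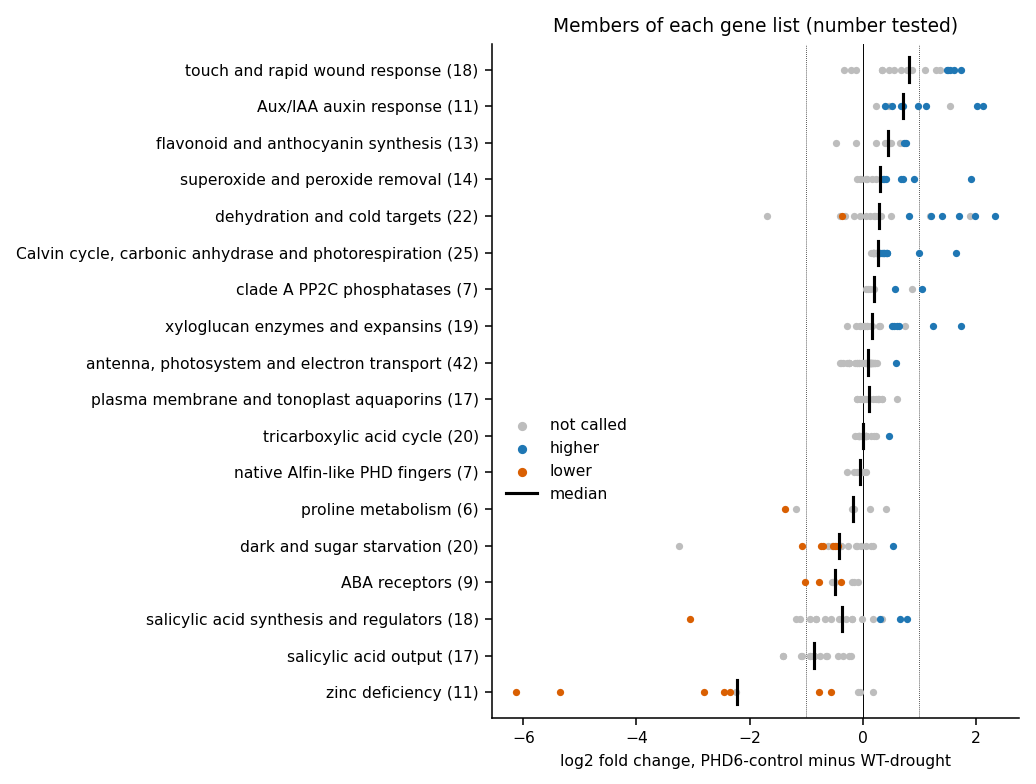
Log2 fold change of PHD6-control over WT-drought for each tested member of 18 gene lists (number tested in brackets; dotted lines mark 2-fold). Blue and orange points were called higher and lower, grey points were not called, and black bars are medians, from 0.825 for touch genes to -2.23 for zinc deficiency genes.

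Touch and rapid wound genes respond within minutes to handling, cutting and elicitors, through calcium sensors, ERF factors and mRNA-binding zinc fingers. Most of them were above WT-control in both groups, and some were higher still in the watered transgenic plants. Of 18 tested, 5 were higher in PHD6-control and 0 lower (3.48% and 2.13% of all genes were), with a median of 0.825. Against WT-control, 15 rose in PHD6-control (4.26% of all genes did) and 14 in WT-drought (12.2% did). *TCH2*, a calmodulin-like protein, measured 155, 113 and 112 CPM in PHD6-control and 60.9, 39.9 and 33.6 CPM in WT-drought (1.49 ± 0.21, adjusted p = 0.0173). *SZF1*, a CCCH zinc finger protein of salt and pathogen responses, measured 294, 123 and 181 CPM against 75.2, 59.3 and 60.7 CPM (1.61 ± 0.27, adjusted p = 0.0245). Neither gene had overlapping groups. Replicate 1 was the highest of PHD6-control in both, as it was in *ERF104* (1.54), *ERF6* (1.51) and *CAF1A*, a subunit of the mRNA deadenylase (1.74). Of the 18 genes, 3 had an interval within 2-fold, and most of those not called were placed on neither side. *TCH3*, a calmodulin-like protein of the same response, measured 303, 214 and 348 CPM against 336, 306 and 357 CPM (interval -0.56 to 0.14), from 72.7 ± 13.9 CPM in WT-control, and *CZF1* overlapped as well (interval -0.19 to 0.88). *TCH4*, a xyloglucan enzyme, was high in every library of both groups (537, 402 and 580 against 348, 130 and 110 CPM) and did not pass (1.36 ± 0.39, adjusted p = 0.0714). Its level in WT-control was 25.5 ± 5.61 CPM. Without WT-drought replicate 2 or 3, 0 members were called, and 4 to 7 higher in the other fits that left out a library. Without PHD6-control replicate 3, 1 member was also called lower.

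Sequences upstream of *TCH2* and *SZF1* are shown as examples, chosen with their values known, of the motifs usual in such genes. They are from RefSeq (TAIR10.1) at chr5:14999620-14999869 (minus strand) and chr3:20775970-20776219 (plus strand), 5′ to 3′ in the direction of the gene. Capitals in the first mark CGCGTT, the rapid stress response element, and its reverse complement, which overlap in pairs, and capitals in the second mark the W-box, TTGACC or TTGACT, which WRKY factors bind.
TCH2: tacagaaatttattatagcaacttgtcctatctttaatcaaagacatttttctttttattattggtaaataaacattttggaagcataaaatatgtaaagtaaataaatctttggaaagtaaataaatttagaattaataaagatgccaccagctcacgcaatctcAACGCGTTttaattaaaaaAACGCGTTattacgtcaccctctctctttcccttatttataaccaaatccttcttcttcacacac
SZF1: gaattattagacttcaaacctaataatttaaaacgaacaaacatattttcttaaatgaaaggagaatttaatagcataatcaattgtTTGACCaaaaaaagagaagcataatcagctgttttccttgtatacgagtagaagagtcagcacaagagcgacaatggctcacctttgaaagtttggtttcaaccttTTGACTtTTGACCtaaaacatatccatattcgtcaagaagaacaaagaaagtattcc
In the touch list, CGCGTT was present in 3 of 21 genes (14.3%, beside 2.86% of all genes tested) and the W-box in 9 of 21 (42.9%, beside 28.1%). For dehydration targets, the ABA response element, written ACGTGTC or ACGTGGC, was present in 5 of 24 genes (20.8%, beside 7.2%). Shares of the lists count every listed gene, also those that did not pass the filter on low counts, while the shares beside them are over genes tested.

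Most auxin response genes and a part of the cell wall genes, both of which serve growth, were higher in the watered transgenic plants. Aux/IAA genes encode short-lived repressors that auxin itself induces. Of 11 tested, 8 were higher and none was lower (3.48% and 2.13% of all genes were), with a median of 0.716. In each of the 11 the groups did not overlap, as in 30.9% of all genes. *IAA6* measured 17.5, 13.8 and 9.64 CPM in PHD6-control and 5.18, 2.31 and 2.60 CPM in WT-drought (2.02 ± 0.31, adjusted p = 0.0203). *IAA29* measured 20.4, 15.2 and 6.78 CPM against 2.3, 3.11 and 4.3 CPM (2.12 ± 0.39, adjusted p = 0.0271). PHD6-control replicate 3 was the lowest of its group in both. *IAA3* (0.67), *IAA2* (0.72), *IAA19* (0.98), *IAA1* (1.12), *IAA14* (0.52) and *IAA4* (0.39) made up the rest. Against WT-control, 2 of the 11 rose in PHD6-control (4.26% of all genes did) and 4 fell in WT-drought (7.18% did). Of 19 xyloglucan enzymes and expansins, which loosen the wall, 6 were higher and 0 lower (median 0.169), among them *XTH31* (27.3, 20.2 and 11.0 against 5.57, 6 and 5.84 CPM, 1.74 ± 0.29, adjusted p = 0.0232) and *EXPA8* (95.6, 75.6 and 54.4 against 38.4, 27.6 and 29.4 CPM, 1.24 ± 0.20, adjusted p = 0.0221). Both were below WT-control on average, as *EXPA8* was at 126 ± 31.4 CPM and *XTH31* at 54.8 ± 20.2 CPM there. Level in this list were *XTH4* (602, 674 and 712 against 696, 547 and 690 CPM, interval -0.20 to 0.28) and *EXPA1* (177, 118 and 109 against 115, 141 and 160 CPM, interval -0.46 to 0.37). *EXLA1*, an expansin-like gene, measured 168, 148 and 169 CPM against 184, 116 and 130 CPM (interval -0.18 to 0.52), beside 20.6 ± 3.05 CPM in WT-control. Without PHD6-control replicate 1 or 2 or WT-drought replicate 2 or 3, 0 Aux/IAA genes were called, and 0 wall genes apart from 1 without PHD6-control replicate 1. Without PHD6-control replicate 3 there were 11 Aux/IAA and 7 wall genes.

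In the salicylic acid pathway, most regulators and all output genes were lower in sign in PHD6-control, while a few regulators were called higher. Of 18 genes of synthesis and regulation, 3 were higher and 1 lower (3.48% and 2.13% of all genes were). Only 5 of the 18 changes were positive (median -0.363). *WRKY70*, a factor that answers to salicylic acid, measured 353, 247 and 298 CPM in PHD6-control and 191, 165 and 168 CPM in WT-drought (0.78 ± 0.12, adjusted p = 0.021), from 100.2 ± 7 CPM in WT-control. Its close relative *WRKY54* was higher by 0.67 ± 0.11 (adjusted p = 0.0245) and *ACD6*, a membrane protein of defence, by 0.30 ± 0.07 (adjusted p = 0.0436). *FMO1*, which makes the immune signal N-hydroxypipecolic acid, had 42 counts in PHD6-control and 335 in WT-drought, or 0.379, 0.180 and 1.24 against 3.03, 8.02 and 4.36 CPM (-3.06 ± 0.57, adjusted p = 0.0271). *ICS1*, the isochorismate synthase of salicylic acid, did not pass (15.7, 14.8 and 29.8 against 33.9, 34.6 and 39.4 CPM, -0.84 ± 0.24, adjusted p = 0.0702), and *CBP60G*, a factor that switches *ICS1* on, overlapped (59.7, 24.6 and 54.0 against 35.6, 47.3 and 39.4 CPM).

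Of 17 output genes of salicylic acid, 0 were called by edgeR, although 11 had an unadjusted p under 0.05, and all 17 changes were negative (median -0.863). DESeq2 called 2 lower, and without PHD6-control replicate 3 all 17 were called lower (median -1.49). *BG3*, a glucanase, measured 15.1, 12.5 and 38.9 CPM in PHD6-control and 51.9, 64.2 and 61.5 CPM in WT-drought (-1.41 ± 0.36, adjusted p = 0.0544). *PR1*, the best known marker of this hormone, measured 59.7, 44.5 and 251 CPM against 179, 151 and 123 CPM and overlapped. In both genes replicate 3 was well above replicates 1 and 2 of its group. The median of the 17 genes stood 0.993, 0.839 and 2.11 above WT-control on the log2 scale in the PHD6-control libraries and 2.19, 2.55 and 2.19 above it in the WT-drought libraries. Replicate 3 thus reached nearly the level of the droughted wild type for this list, as the plot of list medians shows, and stayed with its own group for zinc deficiency. For the synthesis list, leaving it out gave 3 higher and 12 lower, without PHD6-control replicate 1 or 2 there were 2 higher and 0 lower, and without WT-drought replicate 2 or 3 the count was 0.

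**Figure D5:**
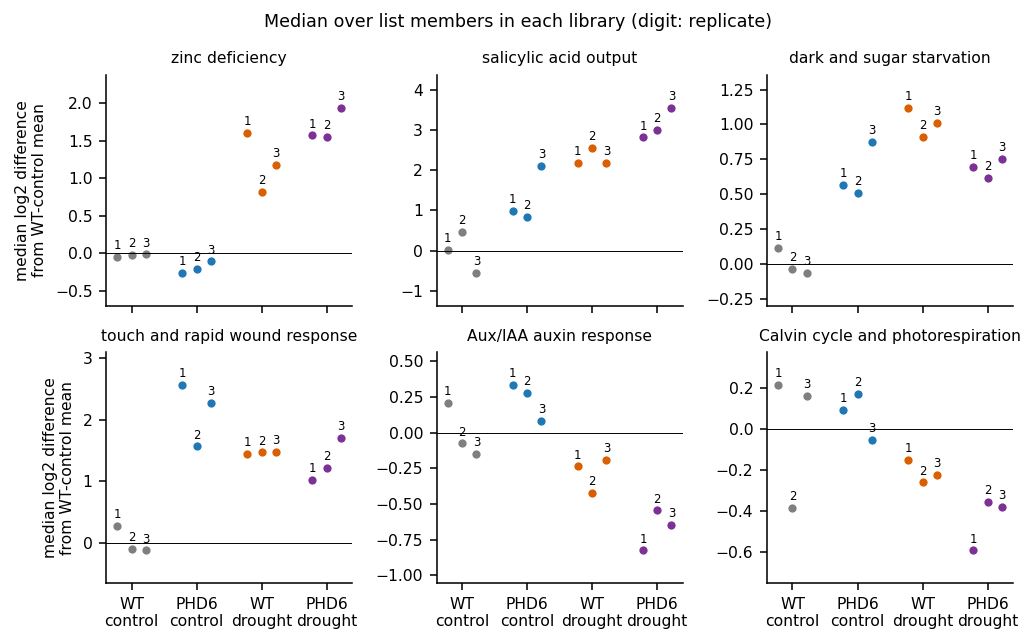
Median over members of 6 gene lists in each library (y axis, log2 difference from the WT-control mean; digits are replicate numbers) in the 4 groups. PHD6-control replicate 3 lies near the WT-drought libraries for salicylic acid output (2.11) and apart from them for zinc deficiency (-0.107, beside 0.818 to 1.6).

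Some genes that moved away from WT-control reached like levels in both groups. *ERD6*, a sugar transporter of dehydration, measured 222, 189 and 306 CPM in PHD6-control and 277, 242 and 282 CPM in WT-drought (interval -0.52 to 0.20), and rose against WT-control by 1.52 ± 0.18 (adjusted p = 0.00259) and 1.68 ± 0.11 (adjusted p = 5.93e-05). *ZAT7*, a C2H2 zinc finger repressor, measured 7.01, 3.38 and 11.9 CPM against 7.86, 8.31 and 6.54 CPM (interval -0.85 to 0.79) and rose by 3.50 ± 0.48 (adjusted p = 0.00531) and 3.53 ± 0.22 (adjusted p = 4.5e-05). *RZPF34*, a RING zinc finger protein, measured 146, 184 and 172 CPM against 183, 186 and 188 CPM (interval -0.35 to 0.04) and rose by 1.21 ± 0.10 (adjusted p = 0.000838) and 1.36 ± 0.08 (adjusted p = 2.98e-05). The groups overlapped in all 3 genes. These rises share the WT-control libraries, so they are not independent of each other. Of 11 zinc finger factors that the study names and that were tested, 1 was higher (*SZF1*) and 1 lower in PHD6-control than in WT-drought, *OZF2*, at 39.3, 39.8 and 42.9 CPM against 67.2, 64.8 and 73.8 CPM (-0.76 ± 0.07, adjusted p = 0.00394). Of the Arabidopsis relatives of the transgene, *AL1* to *AL7*, 0 were called by edgeR and by DESeq2 (2 had an unadjusted p under 0.05), all 7 had an interval within 2-fold (median -0.0465), and *AL2* measured 46.4, 46.7 and 48.6 CPM against 47.9, 47.1 and 46.8 CPM (interval -0.13 to 0.12). Without PHD6-control replicate 3, *AL7* was called lower (-0.37, adjusted p = 0.0161), against -0.29 (adjusted p = 0.101) with it.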

How the data were processed

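RNA-seq libraries of rosette leaves (12 in all, 3 in each of 4 groups) were sequenced paired-end by the authors, aligned with HISAT2 2.0.5 and counted per gene with featureCounts 1.5.0-p3. The deposited values were raw read counts, whole numbers without normalization. The genome build and whether counting used strand are not given in the sources used here, so reads of near-identical copies, or of genes that overlap, may be mixed. The table held 38082 rows. The 2021 rows without a gene name (0.387 to 0.463% of the counts of a library) entered neither library sizes nor tests. Positions and sequences are those of TAIR10.1 from RefSeq, which holds all 36061 named genes.

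Tests were run in R 4.3.3 with edgeR 4.0.16 on the 6 libraries compared, with TMM normalization, the quasi-likelihood F-test and no covariate. The filter on low counts was filterByExpr (min.count 10, 4 groups), and 19681 genes passed it. Calls were made at a Benjamini-Hochberg adjusted p under 0.05, and 95% intervals used the t quantile at the degrees of freedom of the fit. Where groups had 3 replicates each, no exact permutation test can give a p under 0.1, so single values were not tested outside the fit. The study calls the replicates biological, and p-values measure the spread between these samples only. Counting error is small at this depth for all but genes of a few counts. Scripts were tested on simulated data.

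The result was recomputed with upper-quartile scaling or DESeq2's size factors in place of TMM, with DESeq2 1.42.0 as the test, with genes of any count (at least 1) or only those averaging 1 CPM or more, with all 12 libraries in one fit, with replicate numbers as blocking term, without organelle genes, and without each of the 6 libraries in turn.

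The comparison, the gene lists and the motifs were chosen with earlier results of these data known, and lists are described by counts and medians with no test of their own. The list of superoxide and peroxide removal, the 15 genes called without any 1 library and the sequences shown were chosen after these values were seen. Ribosomal proteins were taken from product names of the annotation. Genes were otherwise named by a rule, which took the 10 largest rises and 10 largest falls (called, groups apart, mean of 5 CPM or more on one side), the 4 members with the lowest p in each list, up to 2 members averaging 20 CPM or more, held within 2-fold and nearest to no change, and genes that the study names. Further members of a list were named to complete it.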

Additional observations from a re-analysis of the deposited data

How the results depend on the processing

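By DESeq2, 1226 genes were higher and 669 lower in PHD6-control than in WT-drought, against 685 and 420 by edgeR, and with all 12 libraries fitted together 431 and 243. With a mean of at least 1 CPM required, 140 genes passed the study's thresholds as higher, against 218. Leaving out 1 library moved the count of higher genes between 6 and 1936 and that of lower genes between 12 and 1755. By the study's thresholds the same fits gave 189 to 270 higher and 135 to 561 lower, and 16116 to 16422 genes had an interval within 2-fold, against 16702. The highest counts came without PHD6-control replicate 3, which kept 1104 of the 1105 calls among 3691, and the lowest without WT-drought replicate 3, which kept 18. No called gene turned its sign in any of the 14 alternatives. For fits without 1 library this was largely fixed in advance, as no called gene had overlapping groups, so it lends the calls no weight. In all 14 alternatives, 14 genes (3 higher, 11 lower) were called. Fits without 1 library have fewer samples, and the cause of the differences between them was not tested. The other scalings and filters, and leaving out organelle genes, gave counts within 1.5 times of those reported. Over the named genes, 2325 of 2639 values stayed on their side of the threshold, 221 lost the call and 93 gained it.

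No pairing of the samples by replicate number was seen, though 3 libraries a group are too few to show that there was none. Same-numbered libraries had deviations from their group means that correlated at -0.00568, 0.0354 and -0.123, and libraries of unlike number at -0.174 to 0.159. With the number as a replicate block, 715 genes were higher and 453 lower, 207 and 239 by the study's thresholds, and 16535 had an interval within 2-fold.

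Depth limited only genes of a few counts, such as *ZIP9* (8 counts in PHD6-control) and *NAS2* (6 counts).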

Other observations

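Several of the largest differences lay in genes of no list. *ACS6*, an ethylene synthesis enzyme that stress induces, measured 148, 66.3 and 58.8 CPM in PHD6-control and 21.4, 14.1 and 10.8 CPM in WT-drought, the largest rise among the named genes (2.55 ± 0.38, adjusted p = 0.0185). *DIC2*, a mitochondrial dicarboxylate carrier, measured 160, 67.9 and 74.4 CPM against 24.3, 18.7 and 22.1 CPM (2.21 ± 0.31, adjusted p = 0.0161). In both genes replicate 1 was the highest of PHD6-control, and no library overlapped. AT4G27280, which encodes an EF-hand calcium-binding protein, showed the same order (146, 57.3 and 80.2 against 25.9, 21.0 and 20.4 CPM, 2.07 ± 0.31, adjusted p = 0.0184), as did AT3G23170 (51.2, 28.1 and 28.5 against 10.7, 6.34 and 7.70 CPM, 2.12 ± 0.27, adjusted p = 0.0118). AT1G33760, an AP2/ERF domain factor, measured 14.9, 4.74 and 9.72 CPM against 3.86, 1.85 and 1.22 CPM (2.07 ± 0.47, adjusted p = 0.0417). On the other side, *CML41*, a calmodulin-like protein, measured 8.67, 1.76 and 7.61 CPM against 46.9, 36.7 and 42.8 CPM (-2.81 ± 0.38, adjusted p = 0.0138). *OSM34*, an osmotin-like defence protein, varied within both groups (0.284, 0.0902 and 1.57 against 9.23, 4.2 and 3.19 CPM, -3.04 ± 0.71, adjusted p = 0.0447). Without WT-drought replicate 2 or 3, none of these genes was called, and *OSM34* was also lost by DESeq2, with all 12 libraries fitted together, with the replicate block and without any other library but PHD6-control replicate 3. AT1G33760 was lost without PHD6-control replicate 1 too.

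Flavonoid genes were mostly higher in sign in the watered transgenic plants (11 of 13, median 0.449). *FLS1*, flavonol synthase, measured 14.3, 15.1 and 13.8 CPM against 8.11, 9.45 and 7.92 CPM (0.76 ± 0.10, adjusted p = 0.0131), and *CHS*, chalcone synthase, was the other called gene (0.72 ± 0.16, adjusted p = 0.0414). Both calls were lost with all 12 libraries fitted together. That of *FLS1* was also lost without WT-drought replicate 3, and that of *CHS* in every fit that left out a library other than PHD6-control replicate 3. *NYC1*, a chlorophyll b reductase, was the called gene of 8 in the senescence list (338, 305 and 282 against 213, 197 and 212 CPM, 0.57 ± 0.08, adjusted p = 0.0133). That list was mostly lower in sign, with 2 of 8 changes positive and a median of -0.483. Without PHD6-control replicate 3 it held 1 higher and 2 lower genes, and without WT-drought replicate 2 or 3 *NYC1* was not called. Of 3 phloem markers, *SWEET12* was higher (0.48 ± 0.09, adjusted p = 0.0271), while *SWEET11* had a negative change (-0.19, adjusted p = 0.19). Of 5 guard cell markers, *GC1* was lower (-0.61 ± 0.14, adjusted p = 0.0444) and 3 had positive changes, *KAT1* among them (0.49, adjusted p = 0.0525), with a median of 0.127. DESeq2 called 1 guard cell marker higher and 1 lower. With all 12 libraries fitted together, neither *SWEET12* nor *GC1* was called. Both calls were also lost without PHD6-control replicate 1 or 2 or WT-drought replicate 2 or 3, and that of *GC1* without WT-drought replicate 1 too. The summed level of these 5 ranged from 66.9 to 75.7 CPM in PHD6-control and from 80.4 to 88.6 CPM in WT-drought, and the part of cell makeup in the results was not tested.

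Other lists held few calls or none. Of 100 genes whose product names give a ribosomal protein or its family, 3 were lower and 99 had an interval within 2-fold (median -0.0934). Such names do not always tell cytosolic ribosomal proteins from those of organelles or from relatives outside the ribosome. None of the 100 was called in a fit that left out a library other than PHD6-control replicate 3. All 20 genes of the tricarboxylic acid cycle had intervals within 2-fold, with *mMDH2*, a mitochondrial malate dehydrogenase, called higher (0.46 ± 0.08, adjusted p = 0.0266). That call was lost without PHD6-control replicate 1 or 2 or WT-drought replicate 2 or 3. By edgeR 0 genes were called among 17 aquaporins (16 within 2-fold, 7 with an unadjusted p under 0.05, 3 called by DESeq2), 14 clock genes (12, 4 and 0 in the same order), 14 jasmonate genes (8, 4 and 4), 13 phosphate starvation genes (10, 2 and 0) and 8 heat shock genes (7, 1 and 0).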
